A study of Mus musculus with 12 samples.

Results

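The 8 genes *Fmnl1*, *Sgsm1*, *Sbk1*, *Synj2*, *Galnt9*, *AI414108*, *Serinc2* and *Tnfrsf25* are less studied in the brain and were followed through the cortex and the hippocampus of irradiated mice. They were picked because their FPKM was higher in the irradiated cortex, or because their response differed between the regions, in these same libraries, and because they lie outside the immediate-early, clock and stress gene families. All 8 symbols were found among the 23183 listed per library. The choice therefore used the difference between irradiated and sham cortex and the difference in response between regions, so both are descriptions here: errors, intervals and counts of adjusted p are printed for them, and nothing is read from those as a test.

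The libraries came from male C57BL/6 mice, bought at 7 weeks of age, acclimatized for 1 week, and then given a single dose of 10 Gy to the whole brain (IR) or placed on the same platform without irradiation (Con). Cortex and hippocampus were taken 3 months later, giving 3 Con and 3 IR libraries per region and 12 altogether. The labels do not say whether libraries of the same number came from the same mouse, or how many mice a library holds, so p values measure the spread between these libraries. The values are FPKM, fragments scaled for transcript length and library size, so that levels can be set side by side between genes.

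The FPKM of a library added up to 359773 to 393447. The spacing of the lowest values gave each library a depth of 1 to 1.12 relative to Con 1 from the same region, and the depth in reads was not available from FPKM. *Prox1*, a transcription factor gene of dentate granule cells, was at 1.69 to 2.23 FPKM in the 6 cortex libraries, and in the hippocampus it lay at 14.4 to 16.7 FPKM in Con and 18.8 to 21.1 FPKM in IR, without overlap. The value columns of the cortex and hippocampus files carry different endings, so a difference in level between regions cannot be told apart from a difference between processing runs.

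The proteins of these genes belong to different families. FMNL1 is a formin, one of the proteins that assemble straight actin filaments, and is best known from leukocytes, whereas SYNJ2 is a lipid phosphatase that removes a phosphate from phosphoinositides during vesicle traffic. SGSM1 carries RUN and TBC domains and binds small GTPases of the RAP and RAB families, SBK1 is a serine/threonine kinase with an SH3-binding region, and GALNT9 belongs to the transferases that start O-linked glycans by adding N-acetylgalactosamine to serine or threonine. SERINC2 is a membrane protein of a family named for incorporating serine into membrane lipids, and TNFRSF25, also called death receptor 3, is a receptor of the ligand TL1A that is best known from T cells. *AI414108* is an expressed-sequence symbol that RefSeq lists as an older name of *Igsf9b*, a gene for an adhesion protein of inhibitory synapses.

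All 8 genes were higher in IR than in Con cortex, with every IR library above every Con library, and all 8 had an adjusted p under 0.05 from limma. Upregulation at that threshold was found for 0.562% of the 14065 genes tested in the cortex, and IR libraries lay wholly above Con libraries for 11.2% of them. Because the genes were picked from this difference, nothing is read from these counts. The median log2 fold change (log2FC, IR minus Con) of the 8 was 0.61, against 0.00 over all tested genes.

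*Fmnl1* had the highest FPKM of the 8 in both groups of the cortex. It stood at 32.2, 30.3 and 31.3 FPKM in Con 1, 2 and 3 and at 54.8, 49.9 and 51.6 FPKM in IR 1, 2 and 3. The lowest IR library was thus well above the highest Con library, and the group means were 31.3 ± 0.935 and 52.1 ± 2.50 FPKM (SD, n = 3). The log2FC on the log2(FPKM + 1) scale was 0.72 (standard error 0.06), and the ratio of the means was 1.67. The gene lies on chromosome 11 at 103171107 to 103198901 on the plus strand (GRCm38, GENCODE M21) and is overlapped by *Gm20511*, an antisense transcript that is not listed in the files.

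*Sgsm1* and *Sbk1* rose by similar factors. *Sgsm1* was at 20.7, 22.5 and 22.4 FPKM in the Con cortex and at 34.3, 31.5 and 33.1 FPKM in the IR cortex, with a log2FC of 0.57 (standard error 0.06). *Sbk1* was at 16.8, 17.6 and 19.2 FPKM in Con and at 29.3, 27.6 and 26.5 FPKM in IR, with a log2FC of 0.61 (standard error 0.07). The gap between the groups exceeded the range within either group for both genes, and the ratios of the means were 1.51 for *Sgsm1* and 1.56 for *Sbk1*.

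*Synj2* and *Galnt9*, which encode the lipid phosphatase and the glycosyltransferase, followed each other closely. *Synj2* was at 16.9, 18.3 and 17.0 FPKM in the Con cortex and at 25.4, 23.8 and 24.7 FPKM in IR (log2FC 0.48, standard error 0.06). *Galnt9* was at 27.9, 31.1 and 27.9 FPKM in Con and at 49.9, 42.1 and 42.8 FPKM in IR (log2FC 0.61, standard error 0.07). In both genes Con 2 was the highest Con library and IR 1 the highest IR library. *AI414108* had the smallest change of the 8, from 16.1, 15.3 and 15.1 FPKM to 21.1, 21.7 and 20.99 FPKM, a log2FC of 0.43 (standard error 0.05), and its libraries were also the tightest in IR, at 21.3 ± 0.375 FPKM (SD, n = 3).

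*Serinc2* and *Tnfrsf25* were the low genes of the group and had the largest ratios. *Serinc2* rose from 2.82, 2.09 and 2.02 FPKM to 6.73, 6.34 and 4.44 FPKM, a ratio of the means of 2.53, with IR 3 below the other IR libraries. *Tnfrsf25* rose from 1.46, 2.04 and 2.52 FPKM to 6.12, 3.65 and 5.24 FPKM, a ratio of 2.50. Their log2FCs were 1.04 (standard error 0.14) and 0.99 (standard error 0.17), which the pseudocount of 1 makes smaller than the ratios at these levels. In Con cortex *Serinc2* was higher than 19.6% of the tested genes and *Tnfrsf25* higher than 17.4%, whereas *Fmnl1* and *Galnt9* were higher than 82.4% and 80.9%.

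**Figure D1:**
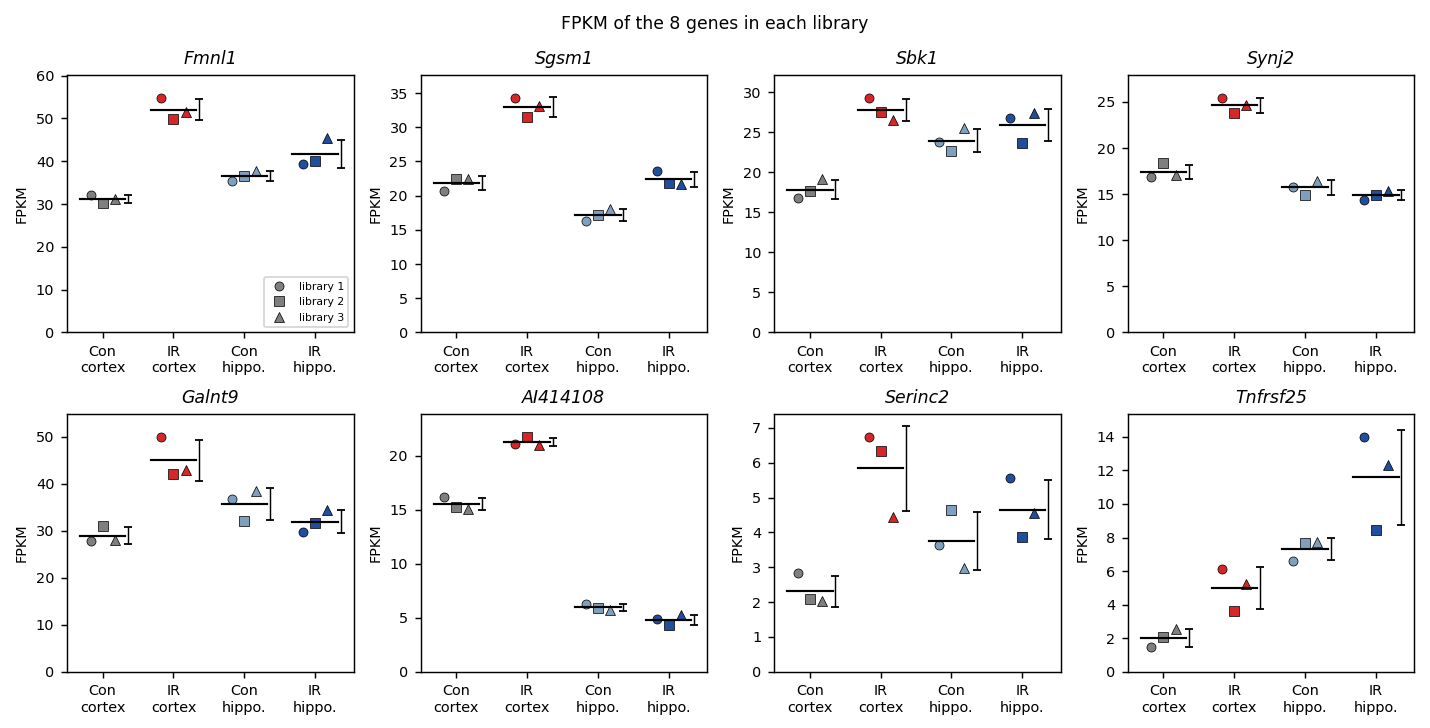
FPKM (vertical axes, from 0) of the 8 genes in each of the 12 libraries, by group (horizontal axes), with 1 symbol per library number, a line at the group mean and a bar of 1 SD beside it. In all 8 panels the red IR cortex symbols lie above the grey Con cortex symbols, while the hippocampal groups are separated only in *Fmnl1*, *Sgsm1*, *AI414108* and *Tnfrsf25*.

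The highest of the IR cortex libraries was nearly always the same. IR 1 was the highest IR library of the cortex for 7 of the 8, all but *AI414108*, and was the highest for 36.4% of all tested genes, while the lowest was IR 2 for 5 genes and IR 3 for 3. The relative depth of IR 1 was 1.01, against 1.05 in IR 2 and 1.03 in IR 3. When IR 1 was left out, the log2FCs lay between 0.44 for *AI414108* and 0.94 for *Serinc2*, and 4 of the 8 genes, *Fmnl1*, *Sgsm1*, *Sbk1* and *Galnt9*, had an adjusted p under 0.05 from limma, as had 16 of 13986 tested genes against 102 of 14065 with all libraries. No gene on the lists of cell type markers had an adjusted p under 0.05 from limma in the cortex, and the sums of some lists differed between the groups. The summed FPKM of 8 endothelial genes was 65.7 to 75.3 in Con and 76.0 to 89.5 in IR, with 6 of the 8 genes higher in IR, and that of 8 oligodendrocyte genes was 1098 to 1367 in Con and 1372 to 1659 in IR, with 7 of 8 higher. The 10 microglial genes summed to 191.1 to 206.9 FPKM in Con and 157.8 to 196.3 FPKM in IR, with 9 of 10 lower and overlap of the sums. The 8 striatal neuron genes summed to 90.3 to 95.0 FPKM in Con and 96.2 to 103.6 FPKM in IR, with 5 of 8 higher. The sums of the 8 astrocyte genes overlapped, at 770.0 to 862.3 FPKM in Con and 803.8 to 859.4 FPKM in IR. Overlap was also found for the 6 interneuron genes (614.9 to 652.1 and 620.6 to 683.6 FPKM). The same held for the 8 cortical excitatory neuron genes (638.7 to 662.7 and 634.5 to 658.5 FPKM) and the 6 thalamic neuron genes (25.6 to 29.2 and 24.6 to 29.1 FPKM). No gene of these lists was at 0 throughout the cortex. Their part in the changes of the 8 genes was not tested, and in tissue RNA a change in the number of cells of a type cannot be told apart from a change in RNA per cell.

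T cell genes were close to 0. The 6 T cell genes listed of 8 summed to at most 0.420 FPKM in any cortex library and to 1.01 FPKM in hippocampal Con 1, the highest of the hippocampus libraries. *Tnfsf15*, the gene of the TNFRSF25 ligand TL1A, had a mean of 0.00982 FPKM in Con cortex and 0.00954 FPKM in IR cortex and was at 0 in all 6 hippocampus libraries. Choroid plexus genes summed to 5.06 to 31.9 FPKM in Con cortex and to 18.2, 443.4 and 17.1 FPKM in IR 1, 2 and 3. Their part in the values of the 8 genes was not tested.

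In the hippocampus the 8 genes no longer moved together. The IR libraries lay above the Con libraries for 3 genes, *Fmnl1*, *Sgsm1* and *Tnfrsf25*, below them for *AI414108*, and overlapped them for 4. Over all 14043 genes tested there, 10.5% had IR wholly above Con and 9.36% wholly below. None of the 8 had an adjusted p under 0.05 from limma, which 0.0285% of the tested genes had, and 4 had an unadjusted p under 0.05, which 13.9% had. Without Con 3 the calls over all genes went from 4 to 880 of 13909, and *Sgsm1* was among them (adjusted p = 0.0257 from limma). *Sgsm1* was also called with all 12 libraries in a single fit, where 74 of 14043 genes were called. The count stayed 0 when any other single hippocampal library was left out. The hippocampal difference is a part of the difference in response by which genes could be picked, so these counts are descriptions.

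Of the genes on the lists of cell type markers, 1 had an adjusted p under 0.05 from limma in the hippocampus, *Csf1r*, the receptor on which microglia depend. *Prox1* did not (log2FC 0.30, limma adjusted p = 0.247). The 10 microglial genes summed to 191.7 to 224.4 FPKM in Con and 153.5 to 170.4 FPKM in IR, with 10 of 10 lower and no overlap of the sums. The 8 endothelial genes summed to 58.6 to 65.1 FPKM in Con and 70.6 to 73.0 FPKM in IR, with 6 of 8 higher and no overlap. The sums overlapped for the 8 oligodendrocyte genes (1131 to 1385 and 1047 to 1314 FPKM, 6 of 8 lower), the 8 astrocyte genes (893.3 to 1020 and 874.1 to 940.5 FPKM, 6 of 8 lower) and the 6 interneuron genes (359.3 to 509.4 and 405 to 436.9 FPKM, 5 of 6 lower). Choroid plexus genes ranged from 24.8 to 1079 FPKM among Con libraries and from 25.9 to 1670 FPKM among IR libraries. No gene of these lists was at 0 throughout, and their part in the hippocampal values was not tested.

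*Sgsm1* and *Tnfrsf25* were also higher in the irradiated hippocampus. *Sgsm1* was at 16.3, 17.2 and 18.1 FPKM in Con and at 23.6, 21.9 and 21.6 FPKM in IR, a log2FC of 0.36 (standard error 0.07, 95% interval 0.21 to 0.52). *Tnfrsf25* was at 6.57, 7.67 and 7.75 FPKM in Con and at 13.98, 8.45 and 12.3 FPKM in IR, a log2FC of 0.57 (standard error 0.16, 95% interval 0.20 to 0.94). The *Tnfrsf25* groups were separated by a narrow margin in IR 2, which was also its lowest IR library in the cortex. *Tnfrsf25* was the only 1 of the 8 whose ratio of means in the hippocampus, 1.58, reached 1.5.

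*Fmnl1* shifted little in the hippocampus, from 35.3, 36.4 and 37.7 FPKM to 39.4, 40.0 and 45.4 FPKM, a log2FC of 0.18 (standard error 0.07, 95% interval 0.02 to 0.35), with every IR library above every Con library. *Sbk1* overlapped between the groups, at 22.7 to 25.5 FPKM in Con and 23.6 to 27.4 FPKM in IR, with a 95% interval of the log2FC of -0.07 to 0.29. *Serinc2* also overlapped, at 2.97 to 4.64 FPKM in Con and 3.86 to 5.56 FPKM in IR, with an interval of -0.10 to 0.61.

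*Synj2*, *Galnt9* and *AI414108* had negative log2FCs in the hippocampus. *AI414108* was at 6.26, 5.93 and 5.67 FPKM in Con and at 4.92, 4.29 and 5.21 FPKM in IR, a log2FC of -0.26 (standard error 0.09, 95% interval -0.46 to -0.06), so that its libraries were separated in opposite directions in the 2 regions. *Galnt9* was at 36.8, 31.97 and 38.5 FPKM in Con and at 29.6, 31.5 and 34.5 FPKM in IR, with overlap (log2FC -0.16, 95% interval -0.36 to 0.04). *Synj2* was at 15.8, 14.9 and 16.5 FPKM in Con and at 14.4, 14.9 and 15.4 FPKM in IR, also with overlap (log2FC -0.07, 95% interval -0.22 to 0.07).

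**Figure D2:**
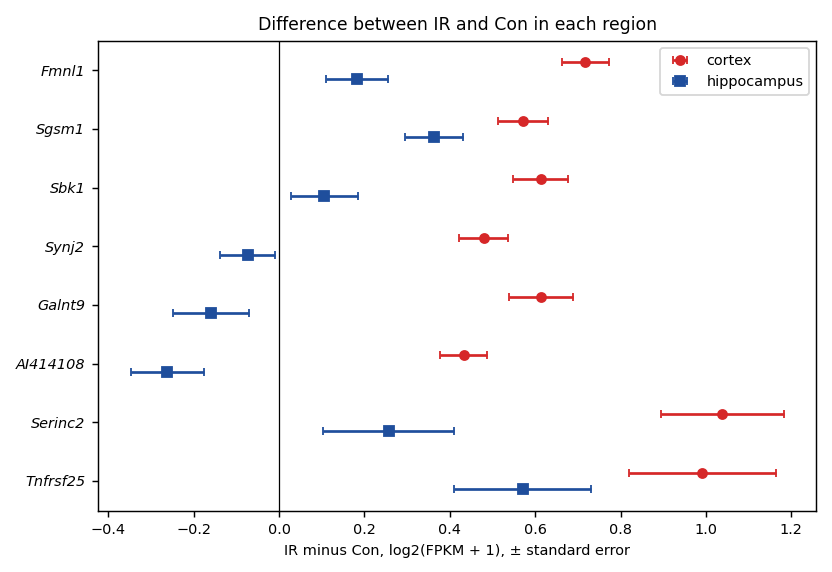
IR minus Con on the log2(FPKM + 1) scale (horizontal axis) for each gene (vertical axis), in the cortex (red circles) and the hippocampus (blue squares), with bars of 1 standard error from limma. The cortical value lies to the right of the hippocampal value for all 8 genes, and those of *Synj2*, *Galnt9* and *AI414108* stand on opposite sides of 0.

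The difference in response, as the hippocampal minus the cortical log2FC, was negative for all 8 genes. It ranged from -0.21 for *Sgsm1* (95% interval -0.40 to -0.02) to -0.78 for *Serinc2* (95% interval -1.28 to -0.28), with *Galnt9* at -0.77 (95% interval -1.04 to -0.51) and *AI414108* at -0.69 (95% interval -0.90 to -0.49). That of *Tnfrsf25* was -0.42, with an interval of -0.997 to 0.15 that included 0. The adjusted p of this interaction from limma was under 0.05 for 3 of the 8, *Synj2*, *Galnt9* and *AI414108*, and for 0.083% of the 14459 genes tested over the 12 libraries. This count depends on the libraries used. Leaving out any of 8 single libraries took it to 0 (each cortical library but Con 2, and hippocampal Con 2, IR 1 and IR 2). The calls over all tested genes also fell in these 8 fits, to 0 or 1. The count reached 5 without hippocampal Con 3, when 487 of 14415 tested genes were called against 12 of 14459 with all libraries. It was also 0 when libraries of the same treatment and number were taken as 1 mouse, a fit that called 0 of 14459 tested genes.

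**Figure D3:**
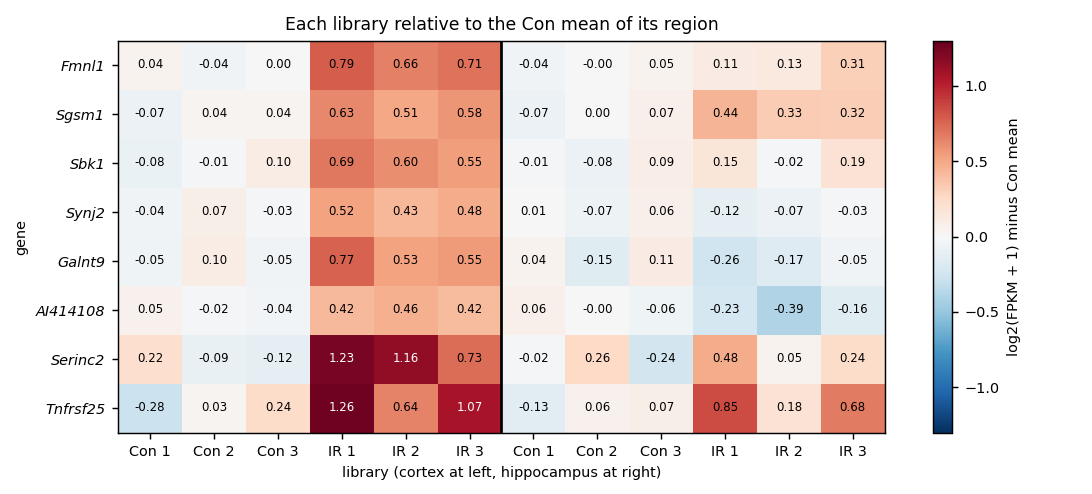
Each library (horizontal axis, cortex left of the line and hippocampus right) relative to the mean of the Con libraries of its region, as log2(FPKM + 1), for each gene (vertical axis), with the value printed in the cell and colored from blue (lower) to red (higher). Cortical IR 1 holds the highest value of its group in 7 rows, and the hippocampal IR cells are blue for *Synj2*, *Galnt9* and *AI414108* and red for *Fmnl1*, *Sgsm1*, *Serinc2* and *Tnfrsf25*.

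Levels in the 2 regions are described without a test, because the Con and IR cortex values had served to pick the genes. In Con, the cortex and hippocampus libraries did not overlap for any of the 8 genes. The share of all genes separated in this way was not counted, so nothing is read from this. Differences between regions were common, as 8016 of 14459 tested genes had an adjusted p under 0.05 from limma for the mean difference over Con and IR. *AI414108* was lower in the hippocampus, at 15.1 to 16.1 FPKM in Con cortex and 5.67 to 6.26 FPKM in Con hippocampus. *Tnfrsf25* was the reverse, at 1.46 to 2.52 FPKM in Con cortex and 6.57 to 7.75 FPKM in Con hippocampus, and each of its hippocampus libraries, Con or IR, was above all of its cortex libraries.

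*Sgsm1* and *Synj2* were also lower in Con hippocampus than in Con cortex, with means of 17.2 against 21.9 FPKM and 15.7 against 17.4 FPKM. The other 4 were higher there. *Sbk1* had a mean of 24.0 FPKM in Con hippocampus and 17.9 FPKM in Con cortex, *Fmnl1* 36.5 and 31.3 FPKM, *Galnt9* 35.8 and 29.0 FPKM, and *Serinc2* 3.75 and 2.31 FPKM. In IR the cortex was the higher region for *Fmnl1*, *Sbk1*, *Galnt9* and *Serinc2*, with means of 52.1, 27.8, 44.9 and 5.84 FPKM against 41.6, 25.9, 31.9 and 4.66 FPKM in the hippocampus. For these 4 genes the order of the regions thus turned between the Con and IR means, and the IR libraries of the regions overlapped for *Sbk1* and *Serinc2*.

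In Con cortex the order of levels ran from *Fmnl1* and *Galnt9* (31.3 ± 0.935 and 29.0 ± 1.84 FPKM) through *Sgsm1*, *Sbk1*, *Synj2* and *AI414108* to *Serinc2* and *Tnfrsf25* (2.31 ± 0.448 and 2.01 ± 0.532 FPKM; SD, n = 3). The libraries of neighbors in this order overlapped for *Fmnl1* and *Galnt9*, *Sbk1* and *Synj2*, and *Serinc2* and *Tnfrsf25*. In Con hippocampus *AI414108*, at 5.95 ± 0.294 FPKM, had moved below *Tnfrsf25*, at 7.33 ± 0.660 FPKM (SD, n = 3).

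*AI414108* and *Igsf9b* are listed as separate genes although RefSeq gives the former as an older symbol of the latter, on chromosome 9 at 27299204 to 27357546 (GRCm38, GENCODE M21). Which bases each row covers is not given in the sources used here, so how the fragments were divided between them is uncertain. *Igsf9b*, looked up after the values of *AI414108* were seen, was at 8.87, 7.45 and 10.3 FPKM in Con cortex and at 12.7, 12.1 and 12.8 FPKM in IR cortex, without overlap (log2FC 0.47, standard error 0.10, limma adjusted p = 0.0750). In the hippocampus it was at 2.73, 2.41 and 3.86 FPKM in Con and at 2.27, 2.58 and 2.92 FPKM in IR, with overlap (log2FC -0.14, standard error 0.14). Both rows were thus higher in IR cortex and far lower in the hippocampus, and their ratio, *AI414108* over *Igsf9b*, was 1.78 ± 0.295 in Con cortex and 1.70 ± 0.0805 in IR cortex (SD, n = 3). In the hippocampus the ratio was 2.07 ± 0.529 in Con and 1.87 ± 0.265 in IR (SD, n = 3). Over the 12 libraries, after the mean of each region was removed, Pearson's r between the rows was 0.665. The *Igsf9b* row varied more between Con libraries than the *AI414108* row.

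**Figure D4:**
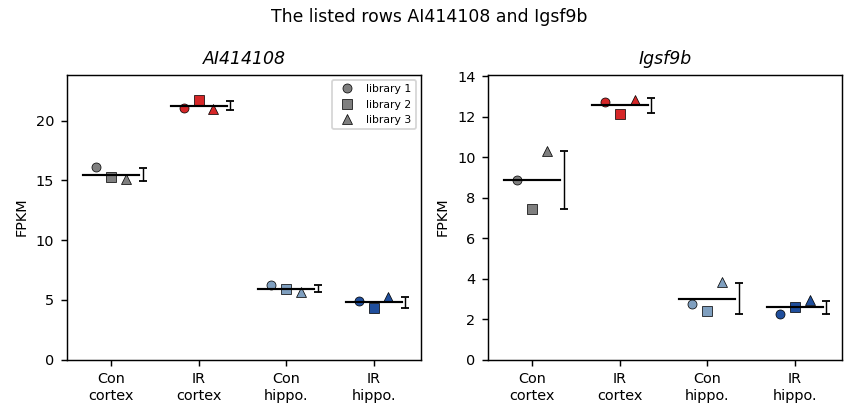
FPKM (vertical axes, from 0) of the rows *AI414108* and *Igsf9b* in each of the 12 libraries by group (horizontal axes), with the group mean as a line and 1 SD as a bar. Both rows are higher in IR than in Con cortex and below their cortical level in the hippocampus, with the 2 hippocampal groups overlapping in *Igsf9b*.

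RefSeq promoter windows (GRCm38.p6, 250 bases before to 50 after a start) were at hand for 6 of the 8 genes, *Fmnl1*, *Galnt9*, *Serinc2*, *Sgsm1*, *Synj2* and *Tnfrsf25*, with 12 windows in all. The letters TGACG, the core of the cAMP response element, were found on either strand in 5 of the 12 windows and in 4 of the 6 genes, against 20.8% of all 32851 windows and 23.0% of all genes. The 32851 windows belong to 27025 genes, so the 6 genes had more windows each on average. The shares by gene are therefore not alike in measure. CACGTG (an E-box) was found in 1 window, of *Galnt9*, against 7.15% of all, and TGANTCA (the AP-1 site) in 1, of *Sgsm1*, against 7.81%. A window of each of the 4 genes is shown 5′ to 3′ on the strand of the gene, with TGACG or its complement in capitals.
Sgsm1, chr5:113310737-113311036, minus strand: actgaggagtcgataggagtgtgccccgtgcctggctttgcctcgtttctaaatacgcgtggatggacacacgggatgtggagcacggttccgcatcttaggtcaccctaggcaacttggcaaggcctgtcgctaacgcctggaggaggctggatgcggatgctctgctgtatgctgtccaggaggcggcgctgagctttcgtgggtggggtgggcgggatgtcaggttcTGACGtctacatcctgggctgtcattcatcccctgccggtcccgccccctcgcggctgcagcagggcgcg
Galnt9, chr5:110544105-110544404, plus strand: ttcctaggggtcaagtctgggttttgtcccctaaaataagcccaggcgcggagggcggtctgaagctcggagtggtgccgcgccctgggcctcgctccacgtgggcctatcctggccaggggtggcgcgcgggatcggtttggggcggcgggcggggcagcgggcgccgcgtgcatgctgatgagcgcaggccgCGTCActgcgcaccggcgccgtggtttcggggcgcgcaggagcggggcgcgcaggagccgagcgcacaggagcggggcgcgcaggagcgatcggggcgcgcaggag
Serinc2, chr4:130275537-130275836, minus strand: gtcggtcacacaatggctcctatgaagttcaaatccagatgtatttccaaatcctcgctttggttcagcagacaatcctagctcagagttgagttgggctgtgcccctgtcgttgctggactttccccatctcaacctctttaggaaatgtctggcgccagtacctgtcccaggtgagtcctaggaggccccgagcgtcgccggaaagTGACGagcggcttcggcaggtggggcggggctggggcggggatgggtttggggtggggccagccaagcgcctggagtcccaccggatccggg
Tnfrsf25, chr4:152115684-152115983, plus strand: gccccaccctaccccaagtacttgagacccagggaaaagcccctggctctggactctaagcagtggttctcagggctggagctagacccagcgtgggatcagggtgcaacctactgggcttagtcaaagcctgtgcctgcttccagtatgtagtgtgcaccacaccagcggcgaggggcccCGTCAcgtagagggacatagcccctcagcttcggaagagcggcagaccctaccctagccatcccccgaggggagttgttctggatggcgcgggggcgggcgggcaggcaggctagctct
The match began 20 bases before the start in *Sgsm1*, 56 before it in *Galnt9*, 42 in *Serinc2* and 69 in *Tnfrsf25*. The windows of *Fmnl1* and *Synj2* held none of the 3 motifs. Both *Synj2* windows lie inside the gene and begin at 5975330 and 5975336 on chromosome 17. GENCODE M21 places the start of *Synj2* at 5941280, which no window covered. A match is a string of letters, and no binding was measured in these libraries.

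The relatives of the 7 genes other than *AI414108* were looked at from lists of 127 genes by family and pathway, of which 123 are listed in the files. None of the 112 tested in the cortex had an adjusted p under 0.05 from limma, and 14 (12.5%) had an unadjusted p under 0.05, as had 14.1% of all tested genes. In the hippocampus 0 of 108 had an adjusted p under 0.05 and 14 (13.0%) an unadjusted one, against 13.9% of all. The median log2FC of the relatives was 0.01 for cortex and -0.01 for hippocampus, and the highest in the cortex, 0.52, was that of *Tbc1d2*.

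Of the 11 listed formins beside *Fmnl1*, 7 were higher in IR cortex and 3 of them had an unadjusted p under 0.05, *Daam2*, *Fhod1* and *Inf2*, against 14.1% of all tested genes. In the hippocampus 1 of the 11, *Inf2*, had one, against 13.9%. *Daam2*, a formin of Wnt signaling, was at 14.4 ± 0.434 and 17.0 ± 0.828 FPKM and *Fhod1* at 1.03 ± 0.121 and 1.56 ± 0.262 FPKM in Con and IR cortex (SD, n = 3, limma adjusted p = 0.138 and 0.215). The nearest paralogs had no adjusted p under 0.05: *Fmnl2* was at 8.44 ± 0.770 and 8.87 ± 0.403 FPKM, and *Fmnl3* at 3.62 ± 0.0445 and 3.25 ± 0.343 FPKM, in Con and IR cortex (SD, n = 3; adjusted p = 0.751 and 0.564 from limma). Among 34 tested relatives of *Sgsm1*, *Tbc1d2* went from 1.37 ± 0.275 to 2.39 ± 0.341 FPKM in the cortex (adjusted p = 0.0916) and *Tbc1d24* from 23.2 ± 1.22 to 20.2 ± 1.23 FPKM (SD, n = 3, limma adjusted p = 0.236). In the hippocampus *Tbc1d2* was at 1.13 ± 0.272 and 1.74 ± 0.273 FPKM and *Tbc1d22a* at 12.5 ± 0.435 and 14.8 ± 0.685 FPKM in Con and IR. *Sgsm2*, at 30.1 ± 1.43 and 32.3 ± 1.43 FPKM, and *Sgsm3*, at 21.3 ± 1.03 and 21.5 ± 0.389 FPKM, had log2FCs of 0.10 and 0.01 (adjusted p = 0.491 and 0.939).

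*Synj1*, the synaptic paralog of *Synj2*, was at 59.8 ± 5.08 FPKM in Con cortex and 58.7 ± 1.98 FPKM in IR cortex (log2FC -0.02, adjusted p = 0.914), and none of the 17 tested phosphoinositide genes had an unadjusted p under 0.05 in the cortex. The lowest p there belonged to *Inpp5d*, the microglial phosphatase SHIP1, at 2.73 ± 0.201 and 2.24 ± 0.334 FPKM, and *Inppl1*, at 8.39 ± 0.960 and 9.67 ± 0.995 FPKM. In the hippocampus they were *Inpp5e*, at 9.89 ± 0.915 and 12.2 ± 0.991 FPKM, and *Inpp5f*, at 24.3 ± 0.715 and 21.4 ± 1.00 FPKM in Con and IR (SD, n = 3, limma adjusted p = 0.289 and 0.310). Of the 17 tested glycan genes beside *Galnt9*, 8 were higher in IR cortex, *Galnt7* (2.87 ± 0.293 and 3.56 ± 0.0735 FPKM) and *C1galt1c1* (8.98 ± 0.102 and 10.2 ± 0.726 FPKM; SD, n = 3) with an unadjusted p under 0.05. In the hippocampus 13 of the 17 were lower, among them *Galntl6*, at 5.57 ± 0.347 and 4.25 ± 0.445 FPKM, and *Galnt13*, at 3.28 ± 0.300 and 2.51 ± 0.161 FPKM (SD, n = 3), with a log2FC of -0.29 (adjusted p = 0.288). The *Sbk1* relatives were almost absent, *Sbk2* and *Sbk3* together summing to at most 0.811 FPKM in the cortex.

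The abundant members of the *Serinc2* family were level between the groups. *Serinc1* was at 306 ± 12.2 and 299 ± 5.12 FPKM and *Serinc3* at 73.7 ± 1.22 and 74.6 ± 2.19 FPKM in Con and IR cortex (SD, n = 3; adjusted p = 0.820 and 0.912 from limma). *Serinc5* was at 15.5 ± 0.768 and 13.97 ± 1.74 FPKM (adjusted p = 0.505). *Serinc2* was thus the lowest of its family in Con cortex at 2.31 FPKM, *Serinc4* being at 4.91 FPKM. Among 21 tested relatives and adaptors of *Tnfrsf25*, *Tnfrsf12a*, the receptor of TWEAK, went from 2.45 ± 0.803 to 3.67 ± 0.313 FPKM in the cortex (log2FC 0.46, adjusted p = 0.245). *Tnfrsf14* was at 0.755 ± 0.255 and 0.396 ± 0.0808 FPKM there, and *Traf2*, an adaptor of these receptors, was at 3.05 ± 0.101 and 3.67 ± 0.245 FPKM in Con and IR hippocampus (SD, n = 3).

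**Figure D5:**
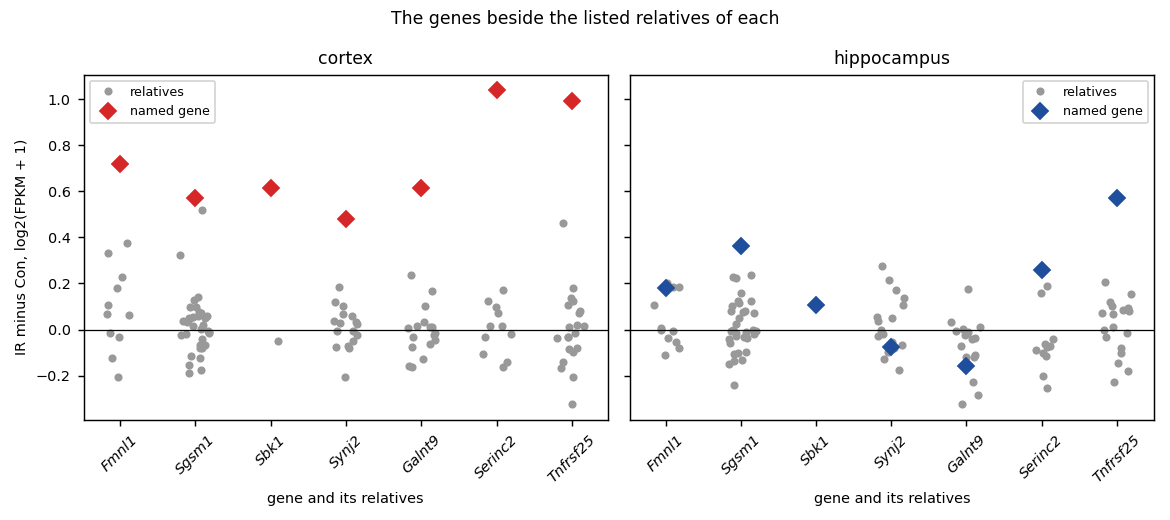
IR minus Con on the log2(FPKM + 1) scale (vertical axis) for 7 of the genes (colored diamonds) and the tested relatives of each (grey points), in the cortex (left) and the hippocampus (right). In the cortex the diamonds lie at 0.48 to 1.04, and in the hippocampus those of *Synj2* and *Galnt9* lie below 0.

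Genes beside the 8 on the chromosome were listed by position. Of the 17 nearest or overlapping genes that the files list, 11 were tested in the cortex, where none had an adjusted p under 0.05 from limma and 3 had an unadjusted p under 0.05, which 14.1% of all tested genes had. *Plekhg5* ends 533 bases before *Tnfrsf25* on the same strand and was at 28.9 ± 1.05 FPKM in Con cortex and 32.9 ± 1.08 FPKM in IR cortex (SD, n = 3), a log2FC of 0.18 (adjusted p = 0.186). *Espn*, which lies 211 bases beyond *Tnfrsf25* on the other strand, had a log2FC of 0.05 in the cortex (adjusted p = 0.919). In the hippocampus *Espn* went from 1.53 ± 0.215 to 0.828 ± 0.200 FPKM, with IR wholly below Con (SD, n = 3, log2FC -0.47, limma adjusted p = 0.247). *Serac1* overlaps *Synj2* by 2095 bases on the opposite strand and had a log2FC of 0.09 (adjusted p = 0.626), and *Snx9*, upstream of *Synj2* and encoding a sorting nexin of endocytosis, one of 0.42 (adjusted p = 0.127). *Jam3*, on the side before *Igsf9b*, was at 12.8 ± 1.12 and 14.8 ± 0.451 FPKM in Con and IR cortex, and *Fabp3*, beyond *Serinc2*, at 114 ± 4.94 and 110 ± 7.92 FPKM (SD, n = 3, limma adjusted p = 0.252 and 0.700). In the hippocampus 3 of 10 tested neighbors had an unadjusted p under 0.05, against 13.9% of all tested genes, and none an adjusted one, against 0.0285%. They were *Espn*, *Fabp3* (log2FC -0.33) and *Gtf2h5*, beyond *Synj2* (log2FC -0.25). The kit keeps strand, but whether the authors' counting used it is not given in the sources used here.

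The genes whose pattern was most like each of the 8 were taken by Pearson's r of log2(FPKM + 1) over the 12 libraries after the mean of each region was removed, among 12468 genes. The closest to *Synj2* was *Galnt9* (r = 0.979) and the reverse held as well, followed by *Etv5* for *Synj2* (0.966) and *Spred3* for *Galnt9* (0.951). *Sgsm1* was closest to *Otub2* (0.983), *Sbk1* to *Per2* (0.980), *Tnfrsf25* to *P4ha1* (0.979), *Fmnl1* to *Mir124a-1hg* (0.977), *AI414108* to *Lrrc59* (0.957) and *Serinc2* to *Ppp2r5a* (0.948). Next in likeness came *A330023F24Rik* for *Sgsm1* (0.964), *Samd4b* for *Sbk1* and *Fmnl1* (0.959 and 0.976), *Zc3h11a* for *Tnfrsf25* (0.968), *Ephb3* for *AI414108* (0.955) and *Enc1* for *Serinc2* (0.945). Among the 8, the lowest such r was 0.384, between *Sgsm1* and *AI414108*. These values describe 12 libraries that share groups and regions, and the highest of 12468 is high by selection.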

How the data were processed

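RNA of the cortex and hippocampus of sham-irradiated and irradiated mice was sequenced in 12 libraries. Per the authors' methods, reads were trimmed with FASTX_Trimmer and BBMap, mapped with TopHat (to mm10 per the submitters' processing notes) and quantified with Cufflinks, and the deposited FPKM had then been geometrically normalized by the authors with edgeR. The annotation is not given in the sources used here. The labels name Trizol, and the methods an RNeasy kit with poly(A) selection. A gene was tested if 3 or more of the 6 libraries from a region reached 0.5 FPKM, on log2(FPKM + 1) with limma 3.58.1 in R 4.3.3 (intensity trend, robust prior, Benjamini-Hochberg adjustment over all tested genes), within each region for IR against Con and over all libraries for the interaction and the mean difference between regions. The latter includes the IR cortex values behind the choice of genes, so it is not reported for them. No count test was run, since the values are FPKM. The fits were tested on simulated data. The genes, the lists of relatives and markers and the motifs were chosen with earlier results of these data known. Named beside the 8 genes were relatives with an adjusted p under 0.05 or, failing that, among the 2 with the lowest p of their list in a region, the closest paralogs, the nearest or overlapping genes and the 2 most alike genes; *Inf2* in the cortex and *Serinc4* were named after their values were seen. Coordinates come from GENCODE M21, the same assembly as mm10. Alternatives were the filter, the pseudocount, quantile normalization, the variance prior, blocks, the fold criterion and leaving out each library. Library numbers were not treated as pairs.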

Additional observations from a re-analysis of the deposited data

Results flagged for a closer look

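The hippocampal response was below the cortical response in 3 genes with an adjusted interaction p under 0.05, and since this difference could have picked them, their values are a description. Over all genes 12 of 14459 (0.083%) had such a p. The count of 3 fell to 0 in several alternative fits, in which 0 or 1 gene was called over all genes. The interaction on the log2 scale was -0.55 for *Synj2*, -0.77 for *Galnt9* and -0.69 for *AI414108*. In *AI414108* every IR library was above every Con library in the cortex and below every Con library in the hippocampus, whereas the hippocampal libraries of *Synj2* and *Galnt9* overlapped. The listed row *Igsf9b*, at the same locus, had an interaction of -0.61 (standard error 0.18, adjusted p = 0.304 from limma).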

How the results depend on the processing

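No log2 fold change of the 8 genes changed sign in the cortex, the hippocampus or the interaction under any alternative run, but hippocampal values are small and single libraries moved some by over 1.5 times. Without hippocampal Con 3 the log2 fold change was -0.04 for *Synj2*, -0.10 for *Galnt9* and 0.14 for *Serinc2*. *Serinc2* was at 0.39 without Con 2 and 0.14 without IR 1, *Fmnl1* at 0.12 without IR 3, and *Sbk1* at 0.07 without Con 2, 0.17 without IR 2 and 0.07 without IR 3. The interaction of *Tnfrsf25*, -0.42 in the main fit, was -0.23 without hippocampal IR 2 and -0.65 with a pseudocount of 0.1. In the cortex 8 of the 8 genes were called (102 of 14065 genes), 5 with a fold of at least 1.5 on the log2(FPKM + 1) scale and an unadjusted p (68 of 14065), 5 with limma without trend and robust prior (22 of 14065), and 6 without a filter (24 of 19079, with *Serinc2* at an adjusted p of 0.0673 and *Tnfrsf25* at 0.112). The cortical count was 4 to 7 when single libraries were left out, in fits that called 16 to 78 genes. The 4, with 16 of 13986 genes, came without cortical IR 1. *Serinc2* was called in 2 and *Tnfrsf25* in 1 of 6 such fits, so the calls of these low genes are the least firm. In the hippocampus 0 were called, 1 (*Sgsm1*) with all 12 libraries in a single fit, where 74 of 14043 genes were called, and 0 to 1 when single libraries were left out, the 1 being *Sgsm1* without hippocampal Con 3, where 880 of 13909 genes were called. The interaction count of 3 (12 of 14459 genes) became 4 with at least 1 FPKM in every library (19 of 11918), 4 with a pseudocount of 0.1 (15 of 14459) and 2 without a filter (7 of 19670). It was 0 with limma without trend and robust prior, with a replicate block on library number, and with same-numbered libraries of a treatment as 1 mouse. Each of these fits called 0 of 14459 genes. The interaction count was 0 to 5 when single libraries were left out, in fits that called 0 to 487 genes. The 5, with 487 of 14415 genes, came without hippocampal Con 3. The relatives count of 0 in the hippocampus was 0 to 3 when single libraries were left out, 3 being reached in that same fit. The numbers were not taken as pairs of Con and IR libraries, since deviations of same-numbered ones correlated across genes at -0.109 to 0.108 in the cortex and -0.393 to -0.085 in the hippocampus. Between the regions, where a shared mouse is possible, the values were -0.038 to 0.18 in Con and -0.07 to 0.115 in IR. With the number as a block, 7 of the 8 were called in the cortex (71 of 14065 genes). The cause of these shifts was not tested. *Serinc2* and *Tnfrsf25* are low, and without reads the counting error of single values is unknown.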

Other observations

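*Psat1*, an enzyme gene of serine synthesis on the list of *Serinc2* relatives, moved in opposite directions in the regions. It was at 36.2, 36.04 and 33.9 FPKM in Con cortex and at 40.8, 41.4 and 37.9 FPKM in IR cortex, and at 44.0, 44.9 and 39.9 FPKM in Con hippocampus and at 35.9, 36.1 and 35.3 FPKM in IR hippocampus, without overlap in either region. Its log2 fold changes were 0.17 (adjusted p = 0.219 from limma) and -0.25 (adjusted p = 0.247), and the interaction was -0.43 (standard error 0.08, adjusted p = 0.108). *Phgdh*, the enzyme gene before it in the same pathway, was at 29.3 to 37.1 FPKM in Con cortex, 30.7 to 33.0 FPKM in IR cortex, 36.5 to 37.3 FPKM in Con hippocampus and 30.3 to 32.9 FPKM in IR hippocampus. Neither gene passed an adjusted threshold, and *Psat1* was picked here after its values were seen.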
